A study of Mus musculus with 29 samples.

Results

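Transcripts of natural killer (NK) cells and T cells were followed through sorted mouse macrophages by reading 10 genes of the deposited expression table, of 23930 genes in all. The 7 NK cell genes were Klrb1c, Klra8, Ncr1, Nkg7, Gzma, Prf1 and Eomes, and the 3 T cell genes were Cd3e, Cd3d and Cd3g. They were taken from the table by gene symbol, with no threshold on their values, and each was present in 29 of 29 libraries as a row of the table. NK and T cell genes were read separately. Across the libraries, the 7 NK cell genes summed to between 3.13 and 571 RPM (reads scaled to a library total of 1000000) and the 3 T cell genes to between 0.537 and 156 RPM, whereas 14 monocyte and macrophage genes summed to between 8420 and 41672 RPM in the same libraries.

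The cells came from C57BL/6 wild-type mice and from mice lacking both mouse copies of the RNase T2 gene, Rnaset2a-/- Rnaset2b-/- (written Rnaset2-/- below), which were given no treatment. The age of these mice was not given in the sources used here. Splenic Ly6Chi macrophages (3 wild-type and 3 Rnaset2-/- libraries) were labelled as Ly6C high, CD11b(+) and negative for Ly6G, SiglecF and NK1.1, and splenic Ly6Clow macrophages (3 wild-type and 4 Rnaset2-/- libraries) as Ly6C low, CD11b(+), Fcgr4(+) and negative for the same 3 antigens. Hepatic Ly6Chi and Ly6Clow macrophages (3 libraries of each subset and genotype) carried the same gates in their labels. Wild-type Kupffer cells (KCs, 4 libraries), the resident macrophages of the liver, were labelled F4/80(+), CD11b(int), Tim4(+) and PDCA-1 low, with no NK1.1 gate. Before sorting, splenocytes were passed over beads that removed cells carrying CD3, NK1.1, Ly6G or TER-119, among other antigens, and the methods describe no such depletion for liver cells and name neither NK1.1 nor CD3 among the antibodies used on them. Whether replicates came from separate mice or from pools was not given in the sources used here, so p-values measure the spread between these libraries, which may be technical.

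NK cells kill infected or transformed cells without prior sensitization. They sense their targets through activating and inhibitory receptors and deliver perforin and granzymes from cytotoxic granules. T cells recognise peptides through a rearranged T cell receptor that signals through the CD3 chains. Neither set of genes defines macrophages, and each library is RNA of many sorted cells, so a transcript measured here can come from a macrophage or from a lymphocyte sorted with it. Fewer cells of a type and less RNA per cell cannot be told apart in such data.

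Klrb1c (chr6:128778485-128789215, minus strand, GRCm38) encodes NK1.1 of C57BL/6 mice, the antigen against which the Ly6Chi and Ly6Clow cells were gated. Klra8 (chr6:130115226-130129898, minus strand) encodes the activating receptor Ly49H and lies among near-identical Klra paralogs, so its counts are uncertain. Ncr1 (chr7:4337724-4345164, plus strand) encodes the activating receptor NKp46. Nkg7 (chr7:43437073-43438249, plus strand) encodes a membrane protein of cytotoxic granules in NK cells and in cytotoxic T cells. Gzma (chr13:113093825-113100981, minus strand) encodes the serine protease granzyme A, Prf1 (chr10:61297833-61304680, plus strand) the pore-forming protein perforin, and Eomes (chr9:118478212-118486132, plus strand) a T-box transcription factor of NK cells. Cd3e (chr9:44998740-45009627, minus strand), Cd3d (chr9:44981786-44987339, plus strand) and Cd3g (chr9:44969572-44980431, minus strand) encode the epsilon, delta and gamma chains of CD3 and together span 40056 bases of chromosome 9. Cd3g and Cd3d are transcribed away from each other from starts separated by 1354 bases.

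RefSeq sequences of GRCm38.p6 were found for 10 of the 10 genes, and the 250 bases before the start are printed for the Cd3g and Cd3d pair, which share 1 intergenic stretch, and for Ncr1 and Gzma, which carry the same motif. Motifs were searched as exact letters on both strands, with T-box as GGTGTGA, RUNX as TGTGGTT, ETS as GGAAGT and GATA as AGATAA, none of which overlapped another in these 4 sequences. Capitals mark the match, written on the strand of the gene, so that ACTTCC is ETS and AACCACA is RUNX on the opposite strand.
Cd3g, chr9:44980432-44980681, minus strand, GATA: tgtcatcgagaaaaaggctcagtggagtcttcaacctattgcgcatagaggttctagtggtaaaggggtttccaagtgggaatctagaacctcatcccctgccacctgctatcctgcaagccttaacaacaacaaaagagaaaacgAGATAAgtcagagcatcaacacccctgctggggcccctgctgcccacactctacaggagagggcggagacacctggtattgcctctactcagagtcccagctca
Cd3d, chr9:44981536-44981785, plus strand, ETS: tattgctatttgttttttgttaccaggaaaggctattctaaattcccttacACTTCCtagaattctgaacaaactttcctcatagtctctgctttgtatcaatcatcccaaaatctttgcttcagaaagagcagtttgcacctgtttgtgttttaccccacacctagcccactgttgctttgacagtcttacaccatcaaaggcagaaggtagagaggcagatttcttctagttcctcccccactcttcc
Ncr1, chr7:4337474-4337723, plus strand, RUNX: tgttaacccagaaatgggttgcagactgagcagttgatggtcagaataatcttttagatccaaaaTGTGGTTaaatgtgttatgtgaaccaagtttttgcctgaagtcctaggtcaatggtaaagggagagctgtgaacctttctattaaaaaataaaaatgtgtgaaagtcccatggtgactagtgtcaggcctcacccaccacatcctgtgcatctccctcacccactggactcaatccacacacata
Gzma, chr13:113100982-113101231, minus strand, RUNX: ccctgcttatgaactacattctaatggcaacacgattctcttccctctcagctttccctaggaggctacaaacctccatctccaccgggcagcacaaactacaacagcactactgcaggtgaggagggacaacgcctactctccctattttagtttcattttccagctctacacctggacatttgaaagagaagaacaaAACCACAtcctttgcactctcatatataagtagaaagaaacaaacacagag
Among 32851 RefSeq promoters of this length, 4.4% held the RUNX letters, 19.7% the ETS letters, 9.99% the GATA letters and 3.33% the T-box letters. Of the other members, Klrb1c, Cd3e and Prf1 held the ETS letters, Nkg7 held the T-box letters 6 bases before its RefSeq start, and no match was found for Klra8 or Eomes. A match is a description of the letters and not of a bound site.

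The libraries held 11175843 to 21167602 reads (median 13027220), and 3 reads, the smallest number taken as detectable, corresponded to 0.142 to 0.268 RPM, which covers counting error only. AmpliSeq reads 1 amplicon per gene and RPM are not scaled by length, so levels are compared between libraries and not between genes. No pair of replicates was as close as sampling noise would make it, and the closest were the wild-type splenic Ly6Chi libraries (chi-square of 5.91 to 8.3 per gene against 10.4 to 197 in other pairs). In the liver, Xist was at 0 to 0.154 RPM in the Rnaset2-/- libraries and at 321 to 539 RPM in the wild-type Ly6Chi and Ly6Clow libraries, with Y-linked genes summing to 150 to 291 RPM in the former and to at most 52.0 RPM in the latter, so genotype and sex cannot be told apart there. In the spleen, replicate 2 of the Rnaset2-/- Ly6Clow libraries was the 1 with Y-linked genes (301 RPM). The genes for RNase T2 were not analysed here.

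Wild-type splenic Ly6Chi macrophages held the highest mean of the 9 groups for Klrb1c, Klra8, Ncr1, Nkg7, Gzma and Eomes. Their 3 libraries lay close together, with Klrb1c at 144, 136 and 128 RPM, Gzma at 203, 193 and 179 RPM and Nkg7 at 122, 132 and 133 RPM. Wild-type hepatic Ly6Clow macrophages lay at the other end for Klrb1c (1.32, 0.610 and 0.268 RPM), Nkg7 (0.331, 1.57 and 0.805 RPM), Gzma (1.99, 1.74 and 1.70 RPM) and Prf1 (0, 0.261 and 0 RPM). The means of Prf1 were 22.4 ± 13.1 RPM (SD, n = 3) in Rnaset2-/- hepatic Ly6Chi macrophages and 20.7 ± 1.14 RPM (SD, n = 3) in wild-type splenic Ly6Chi macrophages, and these 2 groups overlapped. The T cell genes had another order. Cd3e was highest in Rnaset2-/- hepatic Ly6Chi macrophages (66.4 ± 31.4 RPM, SD, n = 3), followed by wild-type splenic Ly6Chi macrophages (42.0 ± 2.39 RPM, SD, n = 3) and KCs (37.0 ± 10.98 RPM, SD, n = 4), and these 3 groups overlapped one another. Cd3d and Cd3g reached 11.2 ± 4.43 RPM and 45.0 ± 19.5 RPM in Rnaset2-/- hepatic Ly6Chi macrophages (SD, n = 3) and 10.9 ± 0.931 RPM and 45.3 ± 27.4 RPM in KCs (SD, n = 4).

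**Figure D1:**
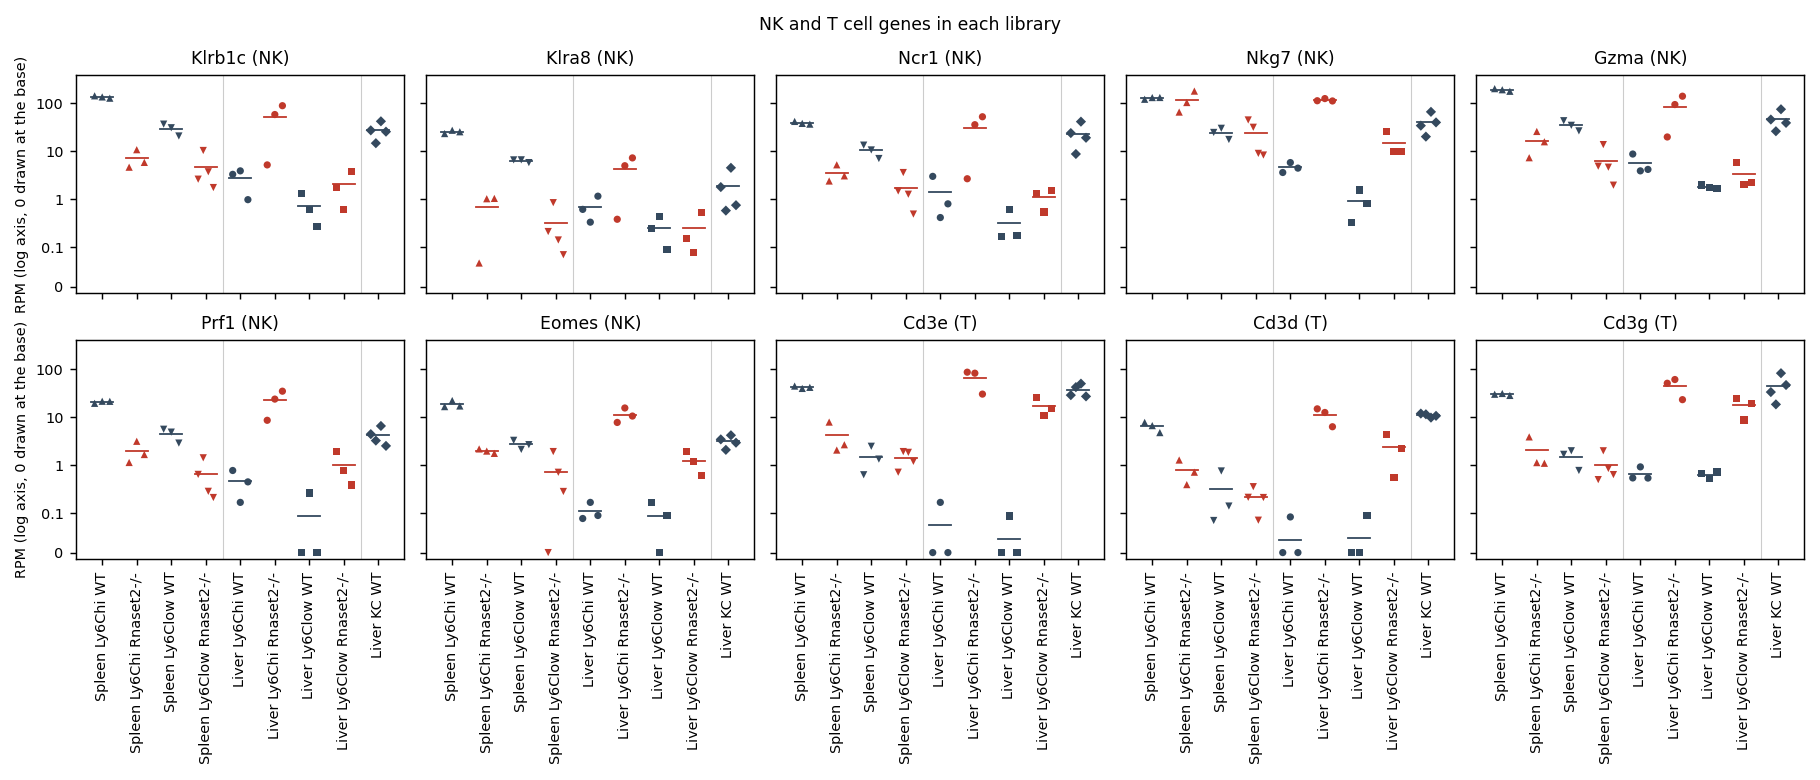
RPM of the 10 genes in each library, on a log axis with 0 drawn at the base, with 1 panel per gene and the groups along the horizontal axis, spleen first and KCs last. Dark points are wild-type and red points Rnaset2-/- libraries, marker shapes separate organ and subset, and horizontal lines are group means. In spleen most red points lie below the dark ones and in the liver above them. The genotypes overlap for Nkg7 in both splenic subsets and for the CD3 genes in splenic Ly6Clow macrophages. In the liver they overlap for Klra8 and Ncr1 in both subsets and for Klrb1c in Ly6Clow macrophages.

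The first question was whether loss of RNase T2 changed these transcripts in splenic Ly6Chi macrophages. Of the 10 genes, 9 were lower in Rnaset2-/- mice with limma (adjusted p below 0.05 and over 1.5-fold), whereas 12.5% of 10398 tested genes were lower and 9.77% higher. The receptor gene Klrb1c was at 4.68, 10.8 and 5.89 RPM in the Rnaset2-/- libraries, against 144, 136 and 128 RPM in wild-type libraries, and the log2 fold change was -4.04 (SE 0.237, adjusted p = 2.19e-06). Klra8 fell from 23.5, 27.5 and 25.6 RPM to 0.047, 1.03 and 1.05 RPM, the first of which is under the 3-read floor (log2 fold change -3.94, adjusted p = 4.38e-06). Ncr1 fell from 42.1, 38.3 and 37.0 RPM to 2.41, 5.24 and 3.09 RPM (log2 fold change -3.07, adjusted p = 6.97e-06). The 3 receptor genes did not overlap between genotypes. The share of all tested genes that separated so was not counted, so this is a description and marks nothing particular to them.

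Among the effector genes of the same comparison, Gzma was at 7.37, 26.0 and 15.9 RPM in the Rnaset2-/- libraries against 203, 193 and 179 RPM (log2 fold change -3.51, adjusted p = 3.62e-05), and Prf1 at 1.13, 3.14 and 1.66 RPM against 19.4, 21.4 and 21.4 RPM (-2.83, adjusted p = 1.68e-05). Nkg7 did not follow them. It was at 66.0, 104 and 180.5 RPM in the Rnaset2-/- libraries, which lay below and above the 122, 132 and 133 RPM of the wild-type libraries, and its log2 fold change was -0.14 with a 95% interval from -0.74 to 0.46 (adjusted p = 0.705). That interval does not reach the change of any other NK cell gene in this comparison, the smallest of which was that of Eomes, at 2.17, 1.96 and 1.76 RPM against 16.6, 22.2 and 17.1 RPM (log2 fold change -2.62, adjusted p = 4.38e-06). Without Rnaset2-/- replicate 1 the sign of the Nkg7 difference turned (log2 fold change 0.22), and it was still not called.

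The CD3 chains fell as well in splenic Ly6Chi macrophages. Cd3e went from 44.5, 39.7 and 41.8 RPM to 7.89, 2.06 and 2.66 RPM (log2 fold change -3.11, adjusted p = 6.64e-05), Cd3g from 30.0, 31.2 and 28.4 RPM to 3.87, 1.13 and 1.09 RPM (-3.37, adjusted p = 1.81e-05), and Cd3d from 7.77, 6.66 and 4.76 RPM to 1.28, 0.392 and 0.712 RPM (-1.98, adjusted p = 0.000157). In all 3, Rnaset2-/- replicate 1 was the highest of its group, whereas the same library was the lowest for Klrb1c, Klra8, Ncr1, Nkg7, Gzma and Prf1. Eomes was highest in that library, like the CD3 chains. The ratio of Cd3e to Klrb1c was 1.69 in that library and 0.190 and 0.452 in the other two, against 0.291 to 0.325 in the wild-type libraries.

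The other NK and T cell genes of the marker lists moved the same way. Of 28 other NK cell genes, 26 were tested, 23 fell, 1 rose (Sh2d1b1, which encodes a SLAM adaptor) and the median log2 fold change was -2.78, against 0.01 over all tested genes. Il2rb, the receptor chain shared by IL-2 and IL-15, fell from 275 ± 15.8 to 16.3 ± 2.97 RPM (SD, n = 3 each), the lectin-like receptor gene Klre1 from 61.5 ± 2.59 to 3.81 ± 1.80 RPM, and Gzmb, which encodes granzyme B, from 81.8 ± 4.38 to 5.42 ± 2.83 RPM. Of 23 measured other T cell genes, 20 were tested and 19 fell (median log2 fold change -2.59), with Cd247, the zeta chain of the receptor complex, at 20.3 ± 2.38 RPM in wild-type and 1.26 ± 0.178 RPM in Rnaset2-/- libraries (SD, n = 3 each). Lck, a kinase of proximal receptor signalling, went from 60.4 ± 4.17 to 6.47 ± 3.11 RPM, and Tcf7, a transcription factor of T cells, from 68.1 ± 11.9 to 7.71 ± 4.62 RPM. Other lineages moved in the same libraries. The B cell, erythroid and plasma cell lists fell in 3 of 3, 4 of 4 and 4 of 4 tested genes, their summed levels were 68.5 to 76.9 RPM against 29.7 to 32.1 RPM for B cell genes and 107 to 112 RPM against 2.74 to 9.80 RPM for erythroid genes, and 6 of 12 tested neutrophil genes rose. Of the plasmacytoid dendritic cell genes 5 of 6 tested fell, and of the basophil and mast cell genes 2 of 5. Type 1 innate lymphoid and resident lymphocyte genes fell in 3 of 5 tested. Their part in the difference of the NK and T cell genes was not tested.

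In splenic Ly6Clow macrophages, Klrb1c, Klra8, Ncr1, Gzma and Prf1 were lower in Rnaset2-/- mice, and the T cell genes were at or under 2.47 RPM in both genotypes. Of 9 members tested, these 5 fell, against 4.3% of 10295 tested genes that were lower and 4.05% that were higher. Klrb1c was at 37.0, 31.1 and 20.9 RPM in wild-type and at 2.63, 10.4, 3.76 and 1.76 RPM in Rnaset2-/- libraries (log2 fold change -2.62, adjusted p = 0.0124). Klra8 went from 6.64, 6.66 and 5.83 RPM to 0.213, 0.852, 0.142 and 0.070 RPM (-2.52, adjusted p = 0.000956), and Ncr1 from 13.5, 10.7 and 7.09 RPM to 1.49, 3.62, 1.28 and 0.493 RPM (-2.15, adjusted p = 0.0133). In these 3 receptor genes each Rnaset2-/- library lay below each wild-type library, and replicate 2 was the highest of the Rnaset2-/- libraries. The share of all tested genes with such a separation was not counted here either, so this too is a description.

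Gzma was lower too, at 43.5, 34.9 and 26.8 RPM against 4.91, 13.8, 4.68 and 1.97 RPM (log2 fold change -2.51, adjusted p = 0.0154), as was Prf1, at 5.59, 4.87 and 2.88 RPM against 0.640, 1.42, 0.284 and 0.211 RPM (-1.75, adjusted p = 0.014). Eomes, at 3.29, 2.13 and 2.67 RPM against 0, 1.92, 0.709 and 0.282 RPM, missed the threshold (-1.20, adjusted p = 0.0705). Nkg7 again stood apart, at 24.8, 30.3 and 17.7 RPM against 45.2, 31.8, 9.08 and 8.38 RPM, with a log2 fold change of -0.34 and an interval from -1.54 to 0.86 (adjusted p = 0.699). Cd3e was at 0.629 to 2.47 RPM in wild-type and 0.711 to 1.92 RPM in Rnaset2-/- libraries (log2 fold change 0.01, interval -0.73 to 0.74, adjusted p = 0.991), a sign that turned with RPM as deposited, DESeq2 and edgeR. Cd3g differed by -0.33 (adjusted p = 0.506), and Cd3d passed no filter (0.070 to 0.755 RPM in 7 libraries, exact permutation test p = 0.8, smallest possible 0.0571). The calls of this comparison rested on its wild-type libraries. With the tested genes kept and wild-type replicate 1 or 2 left out, Klra8 alone of the 10 genes was called, while Klrb1c, Ncr1, Gzma and Prf1 stayed between -2.57 and -1.61 with adjusted p from 0.0508 to 0.0741.

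Among the other NK cell genes in splenic Ly6Clow macrophages, 14 of 26 tested fell (median log2 fold change -1.27, against 0.01 over all tested genes). The chemokine gene Ccl5 went from 95.4 ± 19.3 RPM (SD, n = 3) to 20.4 ± 16.9 RPM (SD, n = 4), Klre1 from 15.1 ± 3.32 to 2.34 ± 1.79 RPM and the receptor gene Klrc2 from 6.32 ± 1.73 to 0.655 ± 0.623 RPM. Of the other T cell genes, 2 of 10 tested fell, Lck (8.32 ± 1.97 to 2.39 ± 1.21 RPM) and the adhesion receptor gene Cd2 (8.06 ± 2.23 to 2.50 ± 0.656 RPM). Lists of other lineages moved unevenly in these libraries. Summed neutrophil genes were at 1080 to 2460 RPM in wild-type and 3449 to 40466 RPM in Rnaset2-/- libraries (2 of 12 tested rose), plasma cell genes at 24.2 to 34.5 RPM against 180 to 1350 RPM (2 of 3 rose) and erythroid genes at 40.2 to 103 RPM against 58.1 to 979 RPM (3 of 6 rose, overlapping sums). Of 3 tested B cell genes 1 fell, and of the plasmacytoid dendritic cell list and the basophil and mast cell list 6 genes each were tested and not called. Type 1 innate lymphoid and resident lymphocyte genes did not fall with the NK cell genes. Of 4 tested 1 rose and none fell (median log2 fold change 0.617). Their part in the result was not tested.

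In the liver the direction was the opposite. In hepatic Ly6Chi macrophages, 9 of the 10 genes were higher in Rnaset2-/- mice, against 15.7% of 10957 tested genes that were higher and 14.9% that were lower. Cd3e, Cd3d, Cd3g, Prf1 and Eomes were under 1 RPM in each wild-type library and passed the filter of 3 libraries at 1 RPM through the Rnaset2-/- libraries, so the count is a description. Among the T cell genes, Cd3e was at 0, 0.167 and 0 RPM in wild-type libraries, which is 2 reads in all, and at 86.6, 82.5 and 30.2 RPM in Rnaset2-/- libraries, which is 2589 reads (log2 fold change 5.70 with the added 1, adjusted p = 0.000262). The ratio of the counts was 1200 with an exact 95% interval from 332 to 9910 that covers counting error only. Cd3d was at 0, 0.083 and 0 RPM against 14.9, 12.5 and 6.31 RPM, or 1 read against 438 (ratio 406, interval 72.5 to 16100, log2 fold change 3.36, adjusted p = 0.000909). Cd3g was at 0.540, 0.918 and 0.537 RPM against 50.9, 60.9 and 23.2 RPM (log2 fold change 4.47, adjusted p = 0.000393). For these genes replicate 3 was the lowest of the 3 Rnaset2-/- libraries and still lay far above every wild-type library.

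The NK cell genes of hepatic Ly6Chi macrophages fell into those that were high in each Rnaset2-/- library and those that were high in 2 of them. Nkg7 belonged to the former, at 114, 126 and 112 RPM against 3.63, 5.84 and 4.47 RPM (log2 fold change 4.12, SE 0.207, adjusted p = 8.85e-05), as did Eomes, at 7.75, 15.5 and 10.5 RPM against 0.077, 0.167 and 0.089 RPM, or 439 reads against 4 (ratio 102, interval 39.4 to 375, log2 fold change 3.26, adjusted p = 0.000368). Prf1 was at 8.60, 23.8 and 34.8 RPM against 0.772, 0.167 and 0.447 RPM (3.62, adjusted p = 0.00124). Gzma was at 19.96, 94.7 and 141 RPM against 8.80, 3.92 and 4.20 RPM (3.09, adjusted p = 0.00913).

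The receptor genes made up the latter. Klrb1c was at 5.22 RPM in Rnaset2-/- replicate 1, close to the 3.32, 3.92 and 0.984 RPM of the wild-type libraries, and at 58.6 and 89.6 RPM in replicates 2 and 3 (log2 fold change 2.95, SE 0.872, adjusted p = 0.0361). Ncr1 was at 2.69 RPM in replicate 1, inside the wild-type range of 0.417 to 3.01 RPM, and at 36.0 and 52.7 RPM in the other two (2.92, adjusted p = 0.0412). Klra8 was at 0.384, 5.02 and 7.31 RPM against 0.617, 0.334 and 1.16 RPM and missed the threshold (1.09, interval -0.27 to 2.46, adjusted p = 0.192). Across the transcriptome, replicate 1 stood apart from the other two as well (chi-square of 192 and 197 per gene, against 23.4 between replicates 2 and 3). Without replicate 1 and with the tested genes kept, 10 of 10 genes were called, and without any other library of the comparison 7 were, with Klrb1c and Ncr1 lost each time. Thus, with the tested genes kept, the calls of Nkg7 and Gzma held without each library, and those of Klrb1c and Ncr1 did not. Those of Eomes, Prf1 and the CD3 chains held too. These genes had entered the test through the Rnaset2-/- libraries, so this is a description and not support. With the filter applied anew, 2 to 7 genes were called. Eomes, Prf1 and the CD3 chains reached 1 RPM in the Rnaset2-/- libraries alone and were not tested when 1 of those was removed.

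The 3 Rnaset2-/- libraries of this group differed in how the T and NK cell genes among the 10 were balanced. For these 10 genes, replicate 1 held the most T cell transcripts relative to NK cell transcripts. In Rnaset2-/- hepatic Ly6Chi replicate 1 the T cell genes summed to 152 RPM and the NK cell genes other than Nkg7 to 44.6 RPM. In replicate 2 the sums were 156 and 234 RPM, and in replicate 3 they were 59.7 and 336 RPM. The ratio of Cd3e to Klrb1c was accordingly 16.6, 1.41 and 0.337. Cd3g kept to Cd3e at a ratio of 0.588 to 0.766 in these 3 libraries, which includes the 0.676 and 0.678 of 2 of the wild-type splenic Ly6Chi libraries. The marker lists beyond the 10 genes did not share this order. The 28 other NK cell genes summed to 3391 RPM in replicate 1, against 1556 and 1521 RPM in replicates 2 and 3. The other T cell genes summed to 739 and 573 RPM in replicates 1 and 2.

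**Figure D2:**
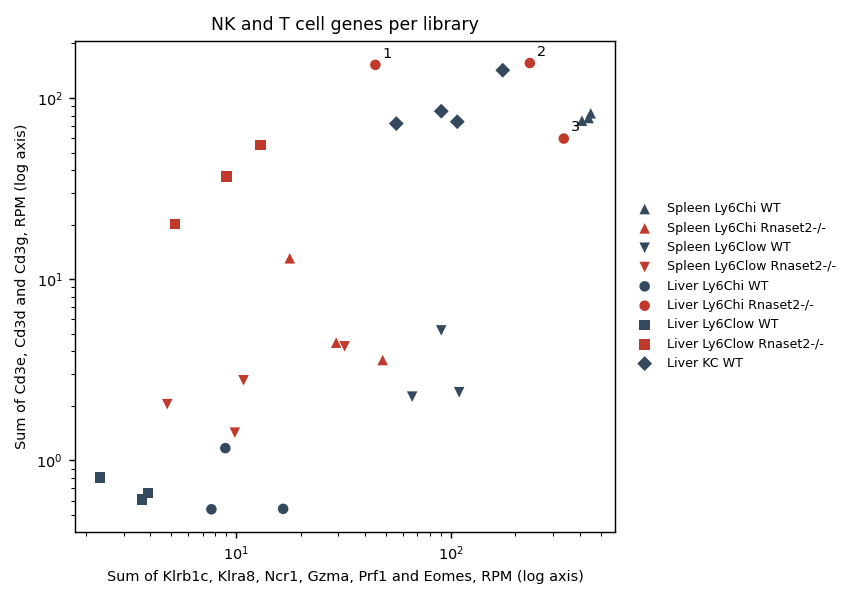
Summed RPM of Cd3e, Cd3d and Cd3g (vertical) against summed RPM of the NK cell genes other than Nkg7 (horizontal) in each library, both on log axes. Red is Rnaset2-/-, dark is wild-type, and the numbers are the replicates of Rnaset2-/- hepatic Ly6Chi macrophages. The 6 wild-type hepatic Ly6Chi and Ly6Clow libraries lie lowest, at 0.537 to 1.17 RPM of T cell genes, and the 3 Rnaset2-/- hepatic Ly6Clow libraries lie high for T cell genes (20.2 to 54.9 RPM) at 5.21 to 13.0 RPM of NK cell genes.

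Of the other NK cell genes in hepatic Ly6Chi macrophages, 18 of 25 tested rose and 1 fell (median log2 fold change 2.18, against 0.01 over all tested genes). Il2rb went from 7.21 ± 3.07 to 233 ± 65.2 RPM, the chemokine gene Xcl1 from 1.68 ± 0.461 to 56.0 ± 29.7 RPM and Tbx21, which encodes the transcription factor T-bet, from 0.685 ± 0.579 to 27.1 ± 7.06 RPM (SD, n = 3 each). The gene that fell was Klrk1, which encodes the activating receptor NKG2D (17.4 ± 3.64 to 9.82 ± 1.29 RPM, log2 fold change -1.04, adjusted p = 0.0132). Of the other T cell genes, 20 of 21 tested rose (median 3.06), with Lck from 0.645 ± 0.615 to 70.4 ± 8.11 RPM, the T cell surface antigen gene Thy1 from 2.14 ± 0.746 to 133 ± 42.1 RPM and Tcf7 from 0.516 ± 0.487 to 35.3 ± 6.80 RPM. The exception was Cd4, which some myeloid cells also express, at 8.68 to 23.8 RPM in wild-type and 15.3 to 43.6 RPM in Rnaset2-/- libraries (log2 fold change 0.30, adjusted p = 0.683). Chosen after its values were seen, Cd8a, a co-receptor chain of cytotoxic T cells, was at 0.926 to 4.76 RPM against 26.5 to 101 RPM, and Foxp3, the transcription factor of regulatory T cells, at 0 RPM in each wild-type library against 5.15 to 9.90 RPM. Among other lineages, the rise took in 11 of 11 tested B cell genes (summed 46.9 to 53.3 RPM against 223 to 542 RPM) and 5 of 5 tested erythroid genes (0.463 to 3.92 RPM against 58.4 to 263 RPM), with 2 of 3 plasma cell genes and 2 of 4 basophil and mast cell genes. Neutrophil genes fell in 2 of 10 tested, and plasmacytoid dendritic cell genes rose in 1 and fell in 2 of 7. Type 1 innate lymphoid and resident lymphocyte genes rose in 4 and fell in 1 of 5 tested. The part of these lists in the result was not tested.

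In hepatic Ly6Clow macrophages, T cell transcripts and Nkg7 were higher in Rnaset2-/- mice, while the other NK cell genes of the 10 were at or under 5.93 RPM in each library. Of the 5 members that passed the filter, 3 rose, against 20.2% of 10808 tested genes that were higher and 22.5% that were lower. Cd3e and Cd3g were under 1 RPM in each wild-type library, and Nkg7 was so in all but 1 of them. All 3 were tested because the 3 Rnaset2-/- libraries were high, so this count too is a description. Cd3e was at 0, 0.087 and 0 RPM in wild-type libraries and 25.7, 10.9 and 15.1 RPM in Rnaset2-/- libraries, or 1 read against 671 (ratio 599, exact interval 107 to 23700, log2 fold change 4.05, adjusted p = 6.83e-05). Cd3g was at 0.662, 0.523 and 0.716 RPM against 24.8, 8.72 and 19.4 RPM (3.38, adjusted p = 0.000286). Cd3d, below the filter, was at 0, 0 and 0.089 RPM against 4.39, 0.545 and 2.22 RPM, or 1 read against 93, and did not overlap (exact permutation test p = 0.1, the smallest that 3 against 3 libraries can give). Nkg7 was at 0.331, 1.57 and 0.805 RPM against 25.7, 10.1 and 9.95 RPM (2.98, adjusted p = 0.000855). These 3 calls were kept without each library when the tested genes were kept. This is a description too, since the Rnaset2-/- libraries had brought these genes into the test.

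Of the remaining NK cell genes in hepatic Ly6Clow macrophages, Klrb1c was at 1.32, 0.610 and 0.268 RPM against 1.77, 0.623 and 3.75 RPM (log2 fold change 0.72, interval -0.29 to 1.72, adjusted p = 0.217) and Gzma at 1.99, 1.74 and 1.70 RPM against 5.93, 2.02 and 2.22 RPM (0.51, interval -0.29 to 1.31, adjusted p = 0.27). Klra8 was at or under 0.536 RPM in all 6 libraries (exact permutation test p = 1.0). Ncr1 overlapped between genotypes (exact permutation p = 0.2), and Prf1 and Eomes did not (3 reads against 40 and 3 against 48, exact permutation p = 0.1 each). Among the other NK cell genes, 6 of 17 tested rose and 4 fell, against 20.2% of all tested genes that were higher and 22.5% that were lower. The share that fell was thus near that over all genes. Il2rb rose from 2.41 ± 0.854 to 37.8 ± 19.8 RPM, whereas Klrk1 fell from 20.2 ± 1.28 to 2.13 ± 3.02 RPM and Klri2, a lectin-like receptor gene, from 7.68 ± 1.94 to 0.614 ± 0.502 RPM (SD, n = 3 each). Of the other T cell genes, 13 of 14 tested rose, among them Thy1 (0.516 ± 0.372 to 29.5 ± 24.7 RPM), Lck (0.426 ± 0.292 to 13.0 ± 8.98 RPM) and Tcf7 (0.175 ± 0.0925 to 8.97 ± 4.35 RPM). In these libraries 7 of 8 tested B cell genes (111 to 145 RPM against 307 to 543 RPM summed) and 5 of 5 erythroid genes rose, as did 2 of 3 plasma cell, 2 of 5 plasmacytoid dendritic cell and 1 of 2 basophil and mast cell genes, while 2 of 5 neutrophil genes fell. Type 1 innate lymphoid and resident lymphocyte genes rose in 3 and fell in 1 of 5 tested (median log2 fold change 2.3). The part of these lists was not tested.

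**Figure D3:**
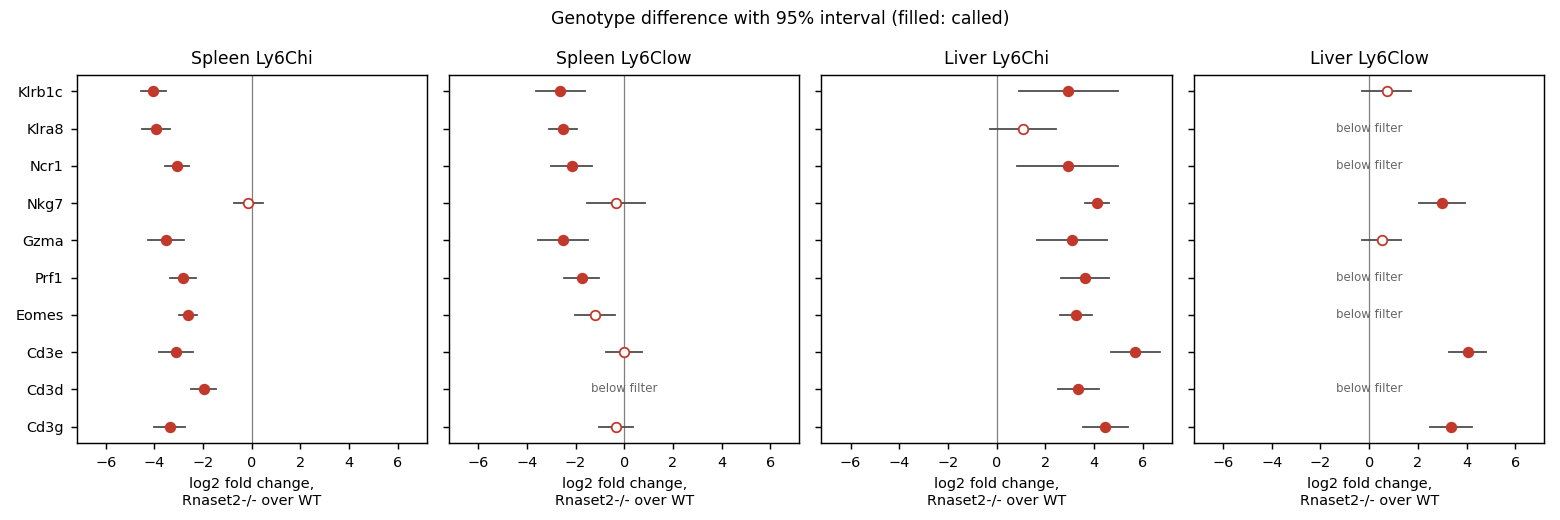
Log2 fold change of Rnaset2-/- over wild-type libraries (limma, on RPM scaled by relative log expression with 1 added) for each gene in the 4 macrophage populations, with 95% intervals. Filled points passed an adjusted p below 0.05 and 1.5-fold, open points did not, and genes under the filter are named as such. Filled points lie left of 0 in both splenic populations and right of 0 in both hepatic ones, and the intervals of Nkg7 in the spleen include 0.

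Whether the genotype difference itself differed between organs was tested as an interaction. In Ly6Chi macrophages the hepatic difference exceeded the splenic one for 10 of 10 genes, against 17.6% of 11398 tested genes that were higher. The interaction was 8.87 on the log2 scale for Cd3e (SE 0.608, adjusted p = 7.81e-07), 7.88 for Cd3g, 5.38 for Cd3d, 7.02 for Klrb1c (SE 1.02, adjusted p = 0.000321) and 4.30 for Nkg7 (SE 0.394, adjusted p = 9.38e-06). In Ly6Clow macrophages it was positive for 9 of 9 tested genes, against 12.1% of 11308, and ran from 2.19 for Eomes (adjusted p = 0.00463) to 4.07 for Cd3e (adjusted p = 7.56e-05). A positive value need not mean opposite changes. In hepatic Ly6Clow macrophages Klrb1c and Gzma were not called for genotype, and Klra8, Ncr1, Prf1 and Eomes lay under the filter. Klra8 had means of 0.256 RPM (Rnaset2-/-) and 0.258 RPM (wild-type) there. In splenic Ly6Clow macrophages Nkg7, Eomes, Cd3e and Cd3g were not called. The organs also differed in bead depletion and, in the liver, in the sex of the mice by genotype, and these cannot be told apart from the organ here.

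Wild-type cells of the 2 organs differed in the same genes. In Ly6Chi macrophages 10 of 10 genes were lower in the liver than in the spleen, against 20.7% of 10681 tested genes, with log2 fold changes from -5.21 for Cd3e (adjusted p = 2.45e-07) to -2.71 for Cd3d (adjusted p = 9.49e-06). In Ly6Clow macrophages 7 of 7 tested genes were lower in the liver, against 15.3% of 10611, with Klrb1c at -4.13 and Eomes at -1.74. Gzma alone reached 1 RPM in each wild-type hepatic Ly6Clow library, and Gzma and Nkg7 alone in each wild-type hepatic Ly6Chi library. The other genes passed the filter with the help of the splenic libraries, so both counts are descriptions. In Rnaset2-/- mice the order turned for the T cell genes. Cd3g was higher in hepatic than in splenic Ly6Chi macrophages by 3.88 on the log2 scale (adjusted p = 0.00114), Cd3e by 3.66, Cd3d by 2.68, Prf1 by 2.77 and Eomes by 1.94, which makes 5 of 10 genes against 15.2% of 10760. Klrb1c and Ncr1 differed by 1.98 and 2.05 without passing (adjusted p of 0.128 and 0.117), Gzma missed the threshold too (adjusted p = 0.0629), and Nkg7 by 0.05 (interval -0.73 to 0.83, adjusted p = 0.929). Without hepatic replicate 1, 9 of the 10 were called. In Rnaset2-/- Ly6Clow macrophages 2 of 7 tested genes were higher in the liver, Cd3e by 2.89 (adjusted p = 0.000566) and Cd3g by 3.19 (adjusted p = 0.000723), against 18.5% of 10559. In Rnaset2-/- mice, Cd3d of the Ly6Chi and Cd3g of the Ly6Clow comparison passed the filter through the hepatic libraries. Sex differed with organ within Rnaset2-/- mice. In Ly6Chi macrophages Xist was at 353 to 447 RPM in splenic and at 0 to 0.154 RPM in hepatic Rnaset2-/- libraries. In Ly6Clow macrophages it was at 0.781 to 744 RPM in splenic and at 0 RPM in hepatic Rnaset2-/- libraries. Organ, sex and bead depletion therefore cannot be told apart in these comparisons of Rnaset2-/- cells. The comparisons between organs use the libraries of the genotype comparisons again and are not independent of them.

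The subsets of each organ were compared next. In wild-type spleen 10 of 10 genes were lower in Ly6Clow than in Ly6Chi macrophages, against 19.8% of 10521 tested genes. The step was larger for the CD3 chains Cd3e (log2 fold change -4.07, interval -4.62 to -3.52) and Cd3g (-3.56, interval -4.01 to -3.11) than for the NK cell genes, which ran from -2.30 for Gzma to -1.71 for Ncr1. Cd3d changed by -2.42, with an interval from -2.97 to -1.87 that includes the value of Gzma. The difference between the sets was not tested. In Rnaset2-/- spleen 1 of 8 tested genes was lower, Nkg7 (-2.47, adjusted p = 0.0137), against 15.1% of 10309, a call lost without Ly6Chi replicate 3 (0 called), while 5 were called without Ly6Clow replicate 2. In wild-type liver Nkg7 (-1.67, adjusted p = 0.0121) and Gzma (-1.25, adjusted p = 0.0437) were lower among 3 tested, against 4.84% of 11688, and 0 were called without Ly6Clow replicate 3 and 1 without any other library. In Rnaset2-/- liver 5 of 9 were lower, against 8.26% of 10895. They were Klrb1c (-3.39, adjusted p = 0.0477), Nkg7 (-2.84, adjusted p = 0.00538), Gzma (-3.87, adjusted p = 0.0121), Prf1 (-3.29, adjusted p = 0.00744) and Eomes (-2.33, adjusted p = 0.00653), and Cd3e (-1.67, adjusted p = 0.0638), Cd3d and Cd3g missed the threshold. Replicates with the same number deviated together in this pair of groups, and with the replicate number as a block 8 genes were called, Ncr1, Cd3e and Cd3d in addition. Without Ly6Chi replicate 2 or Ly6Clow replicate 2, 3 were called.

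KCs, which were sorted from wild-type liver without an NK1.1 gate in their labels, held more of these transcripts than the wild-type hepatic subsets. Klrb1c was at 27.4, 14.8, 42.4 and 25.7 RPM, Nkg7 at 34.4, 20.3, 66.7 and 40.2 RPM, Gzma at 46.1, 26.3, 75.5 and 39.3 RPM, Cd3e at 28.8, 42.3, 49.9 and 27.1 RPM and Cd3d at 11.9, 11.5, 9.78 and 10.7 RPM. Replicate 3 was the highest of the KC libraries for Klrb1c, Klra8, Ncr1, Nkg7, Gzma, Prf1, Eomes, Cd3e and Cd3g and the lowest for Cd3d. Against hepatic Ly6Chi macrophages, 9 of 10 genes were higher in KCs, against 29.3% of 12531 tested genes, from 1.43 for Prf1 (adjusted p = 0.00396) to 4.83 for Cd3e (adjusted p = 1.22e-07), and Klra8 differed by 0.28 (interval -0.66 to 1.22, adjusted p = 0.588). Against hepatic Ly6Clow macrophages, 9 of 9 tested genes were higher, against 26.0% of 12515, from 1.71 for Eomes to 4.91 for Cd3e. Gzma alone reached 1 RPM in each wild-type hepatic Ly6Clow library, and Gzma and Nkg7 alone in each wild-type hepatic Ly6Chi library. The other genes passed the filter with the help of the KC libraries, so both counts are descriptions. The KC libraries also held the most B cell transcripts of the 9 groups (1282 to 1832 RPM summed), and their part was not tested.

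The level of Nkg7 followed those of the other NK cell genes loosely. Its ratio to Klrb1c was 0.848 to 1.03 in wild-type splenic Ly6Chi libraries, 0.671 to 0.973 in wild-type splenic Ly6Clow libraries and 1.25 to 1.58 in KCs. Wild-type hepatic libraries varied more, at 1.09, 1.49 and 4.55 in Ly6Chi macrophages and 0.250 and 2.57 in the 2 Ly6Clow libraries with Klrb1c above the floor. In Rnaset2-/- libraries it was 14.1, 9.63 and 30.7 in splenic Ly6Chi, 17.2, 3.05, 2.42 and 4.76 in splenic Ly6Clow, 21.8, 2.15 and 1.25 in hepatic Ly6Chi and 14.5, 16.2 and 2.65 in hepatic Ly6Clow macrophages. Thus in both splenic subsets each Rnaset2-/- library lay above each wild-type library for this ratio, and in hepatic Ly6Chi macrophages the genotypes overlapped. The ratio of Gzma to Klrb1c moved less, from 1.39 to 1.41 in wild-type splenic Ly6Chi libraries to 1.58 to 2.69 in Rnaset2-/- ones.

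**Figure D4:**
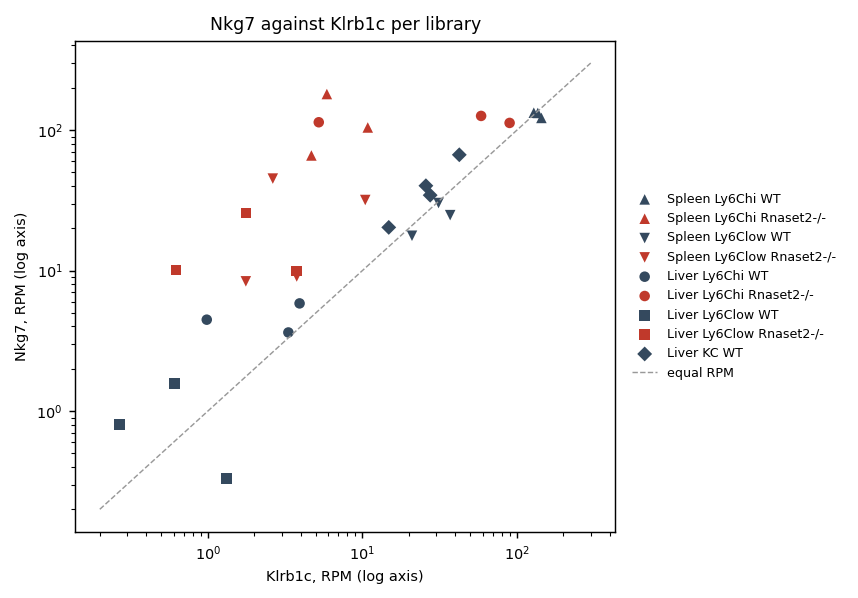
Nkg7 (vertical) against Klrb1c (horizontal) in RPM per library, both on log axes, with a dashed line of equal RPM. Dark points are wild-type, red points Rnaset2-/-. Wild-type splenic libraries and KCs lie along the line (ratios of 0.671 to 1.58), and the Rnaset2-/- splenic libraries lie above it (2.42 to 30.7).

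Across the 29 libraries, genes most like each set were listed as a description, by Pearson's r of log2(RPM + 1) with the mean of the set among 13980 genes. The libraries share groups and are not independent, so no p is given. For the NK cell genes they were Adamts14 (0.971), Klra7 (0.965), Klre1 (0.958), Klrc2 (0.953), Itga2 (0.929), Samd3 (0.924), Klra9 (0.919) and Sytl3 (0.917), and for the T cell genes Lat (0.975), Themis (0.963), Cd247 (0.960), Cd6 (0.958), Lck (0.954), Gimap3 (0.950) and Tox (0.950). Among the members themselves, r with the mean of the remaining NK cell genes was 0.982 for Gzma, 0.958 for Klrb1c, 0.954 for Prf1, 0.944 for Ncr1, 0.930 for Eomes, 0.843 for Klra8 and 0.760 for Nkg7. Nkg7 had 0.569 over the 13 splenic and 0.880 over the 16 hepatic libraries, where Klra8 was lower (0.832), and in the hepatic ones its r with the mean of the T cell genes was 0.925. Each CD3 gene had an r of 0.963 to 0.973 with the mean of the other two.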

How the data were processed

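RNA from 29 sorted macrophage libraries in 9 groups was analysed, grouped by organ, subset and genotype as labelled. The authors extracted RNA with RNeasy kits, built libraries from samples of RNA integrity above a set minimum with the Ion AmpliSeq Transcriptome Mouse kit, sequenced single-end reads on the Ion Proton and counted them in Torrent Suite, using its AmpliSeqRNA plug-in. They deposited RPM, reads scaled to a total of 1000000 per library, for 23930 genes. The submitters' processing notes name the genome build mm10. Every deposited RPM value was a whole number of reads within 0.1 reads (100% of values), which gave counts. Each library's depth of at least 11175843 reads sets a floor of 3 reads, and intervals cover counting error only.

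Each library was scaled by its relative log expression factor, and log2(value + 1) was fitted with limma 3.58.1 (lmFit, eBayes with trend, R 4.3.3), two-sided, within the compared groups. A gene was tested where 3 or more of the compared libraries reached 1 RPM, so a gene high in 1 group can pass through that group alone, and counts of members called are descriptions. P-values were adjusted over all tested genes (Benjamini-Hochberg), and genes with an adjusted p below 0.05 and over 1.5-fold were called. Fold changes on the log2(value + 1) scale understate changes of low genes. Members under the filter were compared by two-sided exact permutation tests of mean RPM (scipy 1.17.1), and ratios of summed reads have exact intervals. DESeq2 1.42.0, edgeR 4.0.16 and the other alternatives are given in the closing section. Same-numbered replicates were compared by the correlation of their deviations from group means. It was over 0.1 in all 3 pairs (0.526, 0.233 and 0.459) between the Rnaset2-/- hepatic subsets and not in every pair of any other comparison. The fits were tested on simulated data.

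Named besides the 10 members were, from each of the other NK and T cell lists, the 3 called genes of largest change per genotype comparison, and the 8 genes most like each set, except for an item that is not reported here. The members and lists were chosen with earlier results of these data known. Of 28 other T cell genes, Cd27, Trac, Trbc1, Trbc2 and Trdc were not analysed here. Coordinates are from GENCODE on GRCm38 and promoters from RefSeq on GRCm38.p6.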

Additional observations from a re-analysis of the deposited data

Results flagged for a closer look

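The genes below are those whose genotype difference (Rnaset2-/- minus wild-type) was not the same in liver and spleen by limma's interaction term, adjusted over all tested genes. The values are hepatic minus splenic differences on the log2 scale. A positive value is not by itself a rise in the liver, since several genes were near the floor or not called there. In Ly6Chi macrophages they were 7.02 for Klrb1c, 5.03 for Klra8, 6.03 for Ncr1, 4.30 for Nkg7, 6.64 for Gzma, 6.48 for Prf1, 5.92 for Eomes, 8.87 for Cd3e, 5.38 for Cd3d and 7.88 for Cd3g. In Ly6Clow macrophages they were 3.35 for Klrb1c, 2.49 for Klra8, 2.82 for Ncr1, 3.34 for Nkg7, 3.02 for Gzma, 2.58 for Prf1, 2.19 for Eomes, 4.07 for Cd3e and 3.72 for Cd3g. The calls of the 10 genes in Ly6Chi macrophages were kept without each library, and in Ly6Clow macrophages 8 or 9 of 9 were. Sex, by Xist and Y-linked genes, and bead depletion differed along with organ and genotype as described above, and their part cannot be told apart. In the 20 sets of 4 libraries of 1 gene and group, no library stood far enough from the others to be listed (0 found). Groups with fewer than 4 libraries, among them Rnaset2-/- hepatic Ly6Chi macrophages, were not examined in this way.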

How the results depend on the processing

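Of the values for single genes, 1018 under other settings and 1777 with 1 library left out kept their direction and their side of the threshold, while 8 and 69 lost a call, 38 and 26 gained one, and 5 and 17 turned sign. Genes that a run no longer tested are not among these, so calls lost through the filter are not counted. The values with 1 library left out pool runs with the filter applied anew and runs with the tested genes kept. The genotype calls in splenic Ly6Chi macrophages stayed at 9 under every alternative run. In hepatic Ly6Clow macrophages the 3 called became 5 with no filter or a single fit of 29 libraries. For Ly6Clow against Ly6Chi macrophages, the 1 called in Rnaset2-/- spleen became 2 with DESeq2 or the single fit, 5 at an adjusted p below 0.1 alone and 0 with the replicate block, the 2 in wild-type liver became 1 with no filter or the single fit, and the 5 in Rnaset2-/- liver became 8 with DESeq2, an adjusted p below 0.1 or the replicate block and 10 with the single fit. For liver against spleen in Rnaset2-/- Ly6Chi macrophages, 5 became 8 with DESeq2 or edgeR and 9 with the single fit. The causes were not tested. Replicate numbers paired the libraries of no other comparison, and besides those named the block moved no count by over 1.5 times.

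With 1 library left out, the counts ranged from 0 to 6 for genotype in splenic Ly6Clow, 2 to 7 in hepatic Ly6Chi and 1 to 3 in hepatic Ly6Clow macrophages, 0 to 5, 0 to 1 and 3 to 6 for subset in Rnaset2-/- spleen, wild-type liver and Rnaset2-/- liver, and 5 to 10, 5 to 9 and 3 to 7 for organ in wild-type Ly6Chi, Rnaset2-/- Ly6Chi and wild-type Ly6Clow macrophages. Part of this is the filter, since a gene present in 3 libraries fails it when 1 is removed. With the tested genes kept, an alternative chosen after seeing the data, the ranges were 1 to 6, 7 to 10 and 3 to 3 for genotype, and 10 to 10 and 7 to 7 for organ in wild-type Ly6Chi and Ly6Clow macrophages. Signs turned for values near 0. Cd3e in splenic Ly6Clow macrophages (genotype) was 0.00 with RPM as deposited, -0.05 with DESeq2, -0.06 with edgeR and -0.27 to 0.28 with a library left out. Nkg7 in Rnaset2-/- Ly6Chi macrophages (organ) was -0.04 with DESeq2 or edgeR and -0.32 to 0.40 with a library left out, in Rnaset2-/- Ly6Clow macrophages (organ) -0.78 to 0.01, and in splenic Ly6Chi macrophages (genotype) -0.50 to 0.22. Ncr1 in Rnaset2-/- Ly6Clow macrophages (organ) was -0.48 to 0.05 and Klra8 of KCs against hepatic Ly6Chi macrophages -0.05 to 0.51. RPM as deposited moved the median log2 fold change of all genes by over 0.1 in some comparisons, to 0.67 for KCs against hepatic Ly6Chi and 0.31 for genotype in hepatic Ly6Chi macrophages, without turning any called member.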
